A study of Homo sapiens with 5 samples.

Results

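PEG10, SGCE and 8 other imprinted genes (MEST, PEG3, H19, IGF2, CDKN1C, PLAGL1, NNAT and GRB10) were followed over 5 whole-genome expression arrays of pancreatic ductal adenocarcinoma (PDAC) cells. The genes were chosen by their values and differences on these same arrays, so that the levels and differences of the 10 genes are a description, with no test. Every probe set that the platform annotation gave to one of them alone was taken and is shown apart, which gave 19 probe sets of 54613, in 8 of the 10 genes, out of 19775 genes in all. H19 and IGF2 had no probe set of their own, and their probe sets, annotated jointly with another gene, are given separately.

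The study asked how integrin α2, a collagenI receptor subunit, and its cytoplasmic domain affect gene expression in MIAPaCa2, an established, poorly differentiated PDAC line with no α2 of its own. MP2-α2/CI cells expressed human α2 and were maintained on a collagenI coating, and MP2-α2/TC cells were the same α2 transfectants in standard culture on plastic. MP2-α2Δ cells, on collagenI as well, expressed an α2 that lacks the cytoplasmic domain. In MP2-α9α2 cells a chimera joined the ectodomain of α9 to the cytoplasmic domain of α2, and these cells grew on tenascin FNIII. MP2-mock cells had received the vector alone and grew in standard culture. All were stable populations under drug selection, with zeocin for the α2 and α2Δ constructs and G418 for the chimera, and the α2 transgene was driven by a viral promoter. The labels give coatings of 25 μg/mL collagenI and 10 μg/mL tenascin FNIII. By the paper, the α2 and α2Δ cells were panned, or selected by adhesion, on collagenI, and the chimera cells on tenascin FNIII. No panning is described for mock cells. Construct, panning, substrate and drug therefore cannot be told apart in several comparisons. Each population had 1 array, so no difference below has a replicate, an error or a p-value.

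Imprinted genes are transcribed mainly from the copy inherited from one parent, and DNA methylation laid down in the germ line marks which parent a copy came from. PEG10 and SGCE lie side by side on chromosome 7, face in opposite directions from a shared control region and are both expressed from the paternal copy. PEG10 is a gene derived from a retrotransposon, with gag-like and pol-like reading frames, and is needed for placental development in mice. SGCE encodes ε-sarcoglycan, a membrane glycoprotein of the sarcoglycan family, and its loss causes myoclonus-dystonia. Many imprinted genes act on growth. IGF2 is a growth factor, CDKN1C is the cyclin-dependent kinase inhibitor p57, and GRB10 is an adaptor protein that binds the insulin and IGF1 receptors and restrains their signaling.

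Values are on the log2 scale as deposited, and 107 odorant receptor probe sets, for genes that these cells should not use, gave a floor of 2.21 to 2.27 (their 95th percentile on each array). MP2-α2/TC, MP2-α2/CI and MP2-mock arrays shared a minimum of 2.24 and MP2-α2Δ and MP2-α9α2 arrays a minimum of 2.21, so the 5 arrays were taken as a set of 3 and a set of 2 that were normalized apart. Values were often exactly equal inside a set, in 45.3% to 52.0% of the probe sets above the floor for the pairs among the 3 arrays and in 29.7% for MP2-α2Δ and MP2-α9α2. KRT8, KRT18 and KRT19, epithelial keratins, were over 4 while EPCAM and CDH1 were not. Of 21 fibroblast marker probe sets, 4 were over 4 (COL1A1 and COL1A2), and none of the leukocyte, endothelial or erythroid marker probe sets was. In such bulk samples, fewer expressing cells and less RNA per cell cannot be told apart.

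RefSeq promoter windows (build GRCh38.p14, 250 bases before to 50 after a start) matched 4 of the 10 genes, with 16 windows of 35116. A window of each of GRB10, with 3 probe sets well over the floor, and MEST and PLAGL1, both near the floor, is shown to set a member with signal beside members without it. Capitals mark TGCCGC or its reverse complement, the hexamer that ZFP57, a zinc finger protein that keeps imprints methylated, binds when its CpG is methylated.
GRB10, chr7:50793404-50793703, minus strand: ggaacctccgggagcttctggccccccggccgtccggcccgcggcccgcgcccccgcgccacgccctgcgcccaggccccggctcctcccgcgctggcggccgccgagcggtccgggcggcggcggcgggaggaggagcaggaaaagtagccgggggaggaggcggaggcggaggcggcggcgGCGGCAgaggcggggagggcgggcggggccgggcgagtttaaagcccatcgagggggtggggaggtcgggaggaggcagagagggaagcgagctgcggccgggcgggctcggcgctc
MEST, chr7:130491835-130492134, plus strand: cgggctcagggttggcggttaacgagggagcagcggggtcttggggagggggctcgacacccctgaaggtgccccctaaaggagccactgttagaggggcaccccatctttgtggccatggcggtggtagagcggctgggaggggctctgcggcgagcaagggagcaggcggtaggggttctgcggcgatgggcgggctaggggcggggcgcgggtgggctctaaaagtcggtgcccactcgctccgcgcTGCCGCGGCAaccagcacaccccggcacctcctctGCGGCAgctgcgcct
PLAGL1, chr6:144008210-144008509, minus strand: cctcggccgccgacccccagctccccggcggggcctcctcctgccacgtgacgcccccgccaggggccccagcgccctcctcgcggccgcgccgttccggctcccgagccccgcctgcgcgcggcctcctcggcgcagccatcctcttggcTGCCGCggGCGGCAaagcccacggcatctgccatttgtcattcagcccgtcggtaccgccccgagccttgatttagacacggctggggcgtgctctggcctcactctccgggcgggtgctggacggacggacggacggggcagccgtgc
The GRB10 window held 44 CpG and 1 hexamer, the MEST window 25 CpG and 3 hexamers, of which a pair overlapped, and the PLAGL1 window 39 CpG and 2 hexamers. The median over all windows was 14 CpG, and 16.7% of all windows held the hexamer on either strand. The palindrome GGGGCCCC, a core of sites that PLAGL1 protein binds, was in 1.95% of all windows and in 1 of the member windows, that of PLAGL1 itself. A match is a description of the letters and not a site of binding. Over all their windows, the hexamer was in 1 of 5 for GRB10, 4 of 5 for MEST, 1 of 5 for PLAGL1 and 0 of 1 for H19. CpG counts ran from 3 to 49 for GRB10, 13 to 25 for MEST and 2 to 39 for PLAGL1, and the H19 window had 6.

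PEG10 and SGCE were the members that differed most among the 3 arrays normalized together. PEG10 probe set 212092_at read 5.12 in MP2-α2/CI cells, 3.75 in MP2-α2/TC cells and 6.49 in MP2-mock cells. PEG10 probe set 212094_at read 5.66 in MP2-α2/CI cells, 5.07 in MP2-α2/TC cells and 7.21 in MP2-mock cells. The SGCE probe set, 204688_at, read 5.20 in MP2-α2/CI cells, 3.82 in MP2-α2/TC cells and 6.17 in MP2-mock cells. All 3 probe sets thus had the same order, lowest in α2 cells on plastic, intermediate in α2 cells on collagenI and highest in mock cells.

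In the other set, PEG10 212092_at read 2.61 in MP2-α2Δ cells and 2.61 in MP2-α9α2 cells, an identical value not far over the floor of 2.21. PEG10 212094_at read 6.37 in MP2-α2Δ cells and 4.64 in MP2-α9α2 cells, and SGCE read 6.12 in MP2-α2Δ cells and 3.49 in MP2-α9α2 cells. The PEG10 probe sets therefore did not move together in this set, and SGCE moved with 212094_at. On the deposited scale 212094_at and SGCE had one order over all 5 arrays, with mock cells highest, then MP2-α2Δ, MP2-α2/CI, MP2-α2/TC and last MP2-α9α2 cells. After quantile normalization MP2-α2/CI cells stood above MP2-α2Δ cells for 212094_at (5.99 in MP2-α2/CI cells and 5.82 in MP2-α2Δ cells), while SGCE kept its order with hardly any gap (5.54 in MP2-α2/CI cells and 5.56 in MP2-α2Δ cells).

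**Figure D1:**
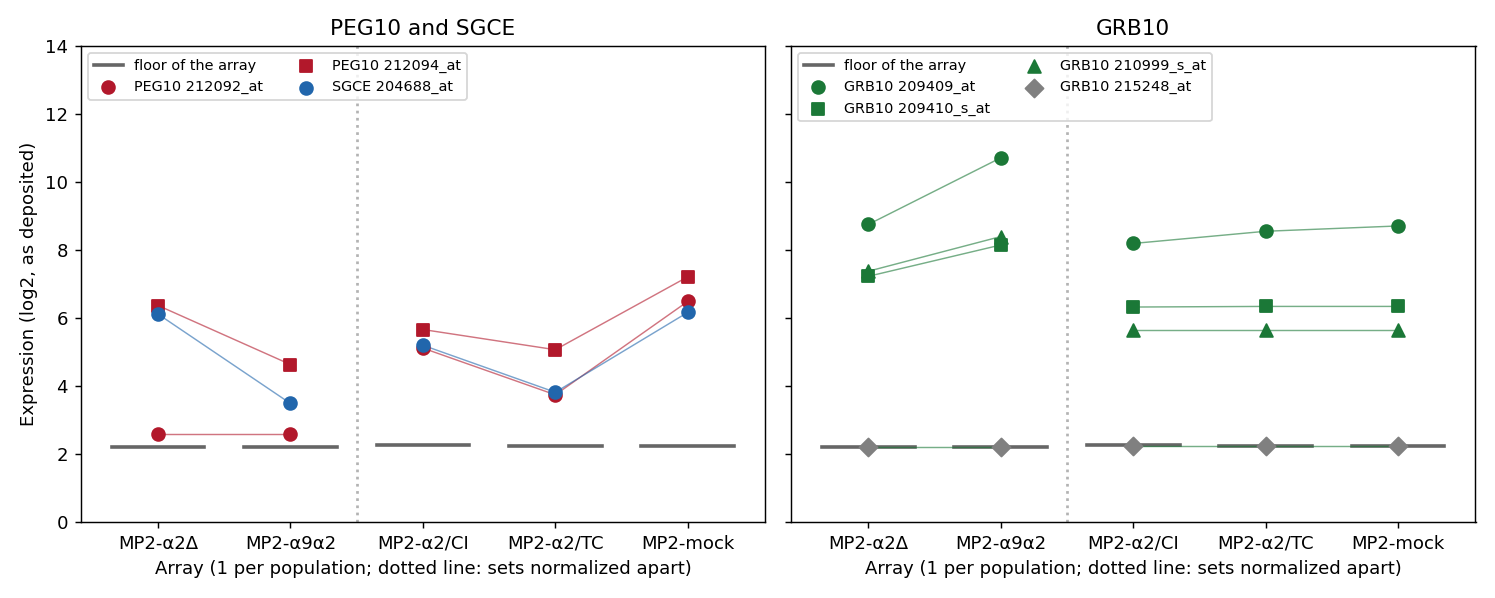
Log2 expression (vertical axis) of the PEG10, SGCE and GRB10 probe sets on each of the 5 arrays (horizontal axis, 1 point per array, gray bars at the floor of each array and lines joining arrays with a common minimum). PEG10 and SGCE were highest in MP2-mock cells, and the 3 GRB10 probe sets over 4 were highest in MP2-α9α2 cells.

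The first comparison set α2 cells on plastic, panned on collagenI beforehand, against mock cells on plastic. PEG10 212092_at was 6.70-fold lower in MP2-α2/TC cells than in MP2-mock cells (log2 difference −2.74), PEG10 212094_at 4.41-fold lower (−2.14) and SGCE 5.09-fold lower (−2.35). These were the 11th, 19th and 14th lowest differences of the 29885 probe sets compared. Of the 9 member probe sets above the floor on either array, 3 were at least 2-fold lower and 0 higher, whereas 0.248% of all probe sets were lower and 0.214% higher. Since the members were chosen from this contrast, nothing is read from that gap. The median difference was −0.002 over the 9 member probe sets and 0 over all probe sets, and 4 of the 9 had identical values on both arrays.

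In α2 cells on collagenI both genes were also below mock cells, in each probe set by less than on plastic. PEG10 212092_at was 2.59-fold lower in MP2-α2/CI cells than in MP2-mock cells (−1.37) and PEG10 212094_at 2.92-fold lower (−1.55). SGCE was 1.95-fold lower (−0.97), just short of the 2-fold limit. Thus 2 of 9 member probe sets were lower and 0 higher, beside 0.256% of all 29696 probe sets lower and 0.236% higher. The MP2-mock array serves both of these comparisons, which are therefore not independent.

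α2 cells on collagenI were next set against α2 cells on plastic. SGCE was 2.61-fold higher in MP2-α2/CI cells than in MP2-α2/TC cells (1.38) and PEG10 212092_at 2.59-fold higher (1.37), the 4th and 5th largest increases of 29810 probe sets. PEG10 212094_at was 1.51-fold higher (0.59), under the 2-fold limit. Only 10 probe sets on the whole array were at least 2-fold higher here (0.0335%), and 2 of the 10 were these probe sets of PEG10 and SGCE. The members were chosen by their differences on these arrays, so nothing is read from these ranks and counts. This pair also follows from the values of both comparisons with mock cells and is not separate from them. No member was 2-fold lower, beside 31 probe sets on the array (0.104%). All 3 probe sets in MP2-α2/CI cells lay between their values in MP2-α2/TC and MP2-mock cells.

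The remaining pair within a set differed in both domains of the integrin and in substrate and drug. SGCE was 6.18-fold higher in MP2-α2Δ cells than in MP2-α9α2 cells (2.63, the 199th highest of 30975 probe sets) and PEG10 212094_at 3.33-fold higher (1.74, the 577th). GRB10 differed the other way, with 209409_at 3.88-fold lower (−1.96) and 210999_s_at 2.03-fold lower (−1.02). Hence 2 of 12 member probe sets were higher and 2 lower. Across the array 7.56% were higher and 4.95% lower, so differences of this size were far more common in this pair than among the other 3 arrays. Of the 12, 7 had identical values on both arrays.

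**Figure D2:**
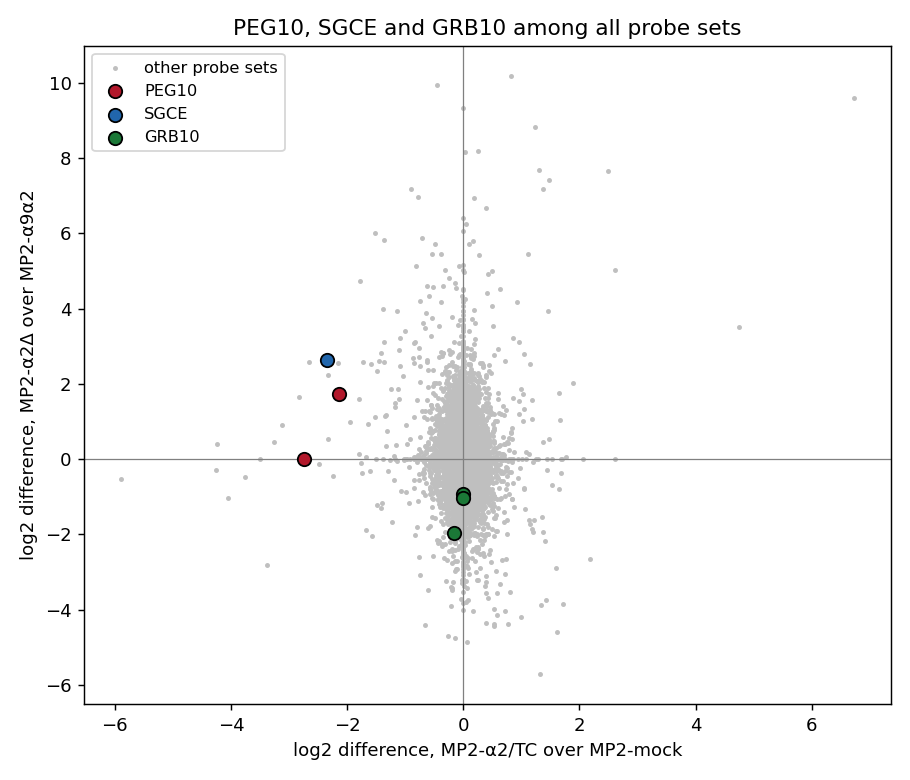
Log2 differences of MP2-α2/TC over MP2-mock cells (horizontal axis) and of MP2-α2Δ over MP2-α9α2 cells (vertical axis), 2 pairs with no array in common, for the 20827 probe sets with a difference of at least 0.05 in either pair. SGCE and PEG10 212094_at lie at the upper left, PEG10 212092_at at the left with no difference in the second pair, and GRB10 below the center.

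Differences across the 2 sets depend on scaling, because the median difference from mock cells, over probe sets with signal above the floor on each of the 5 arrays, was 0.53 in MP2-α2Δ cells and 0.54 in MP2-α9α2 cells. Of 11983 probe sets past 2-fold in MP2-α2Δ against MP2-mock cells, 81.7% were on the higher side as deposited. The share was 35.7% of 11288 after centering each array on its median and 49.9% of 9770 after quantile normalization over the 5 arrays. For MP2-α9α2 over MP2-mock cells the shares were 76.9% of 13342 as deposited, 39.7% of 12761 centered and 51.2% of 11526 after quantile normalization. As shares of all probe sets above the floor, MP2-α2Δ cells had 30.2% higher and 6.77% lower, and for MP2-α9α2 cells 31.7% were higher and 9.52% lower.

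PEG10 212092_at was 14.8-fold lower than in mock cells in both MP2-α2Δ and MP2-α9α2 cells (−3.88), by more after centering or quantile normalization (−4.73 to −4.26) and by less with a floor at 4 (−2.49), which lies above the value of 2.61. In MP2-α9α2 cells PEG10 212094_at was 5.97-fold lower than in mock cells (−2.58) and SGCE 6.40-fold lower (−2.68), again by more after centering (−3.38 and −3.48). In MP2-α2Δ cells the size depended on the scaling. PEG10 212094_at differed from mock cells by −0.84 as deposited, −1.68 centered and −1.72 after quantile normalization, and SGCE by −0.05, −0.89 and −0.95. Over the members above the floor, MP2-α2Δ cells had 1 of 13 higher and 1 lower, and MP2-α9α2 cells had 3 higher and 3 lower. After centering, MP2-α2Δ cells had 0 higher and 3 lower, and MP2-α9α2 cells had 3 higher and 4 lower. Over the whole array, centering put 11288 of 32371 probe sets past 2-fold in MP2-α2Δ cells, 35.7% of them higher. For MP2-α9α2 cells it put 12761 of 32331 past 2-fold, 39.7% of them higher. Calls were thus common in these pairs, and the member counts are not read as a result. Each member count on the lower side after centering includes CDKN1C 213348_at, with centered differences of −1.08 (MP2-α2Δ) and −1.04 (MP2-α9α2). This probe set stood at the array minimum of 2.21 in each of these populations and read 2.44 in mock cells. Its deposited difference was −0.23 in either case, so these calls came from the centering and are not read as a change.

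Genes around SGCE and PEG10 were examined to see how far along chromosome 7 the differences reached. The 8 nearest genes with a probe set on each side in RefSeq order had 42 probe sets, of which 17, in 7 genes, were above the floor. None of the 17 was 2-fold apart in MP2-α2/TC over MP2-mock cells (−0.11 to 0.51), in MP2-α2/CI over MP2-mock cells (−0.14 to 0.65) or in MP2-α2/CI over MP2-α2/TC cells (−0.17 to 0.65). The nearest gene beyond SGCE, CASD1, which acetylates sialic acid, and the collagen gene COL1A2 after it were among them. Few probe sets of the whole array passed 2-fold in the pairs among MP2-α2/TC, MP2-α2/CI and MP2-mock cells, as given above. In MP2-α2Δ over MP2-α9α2 cells, where 7.56% of all probe sets were higher and 4.95% lower, 1 of the 17 was past 2-fold. This was PPP1R9A 228494_at, for neurabin, the gene next to PEG10 and imprinted in some tissues, with 9.47 in MP2-α2Δ cells and 7.81 in MP2-α9α2 cells (1.67).

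**Figure D3:**
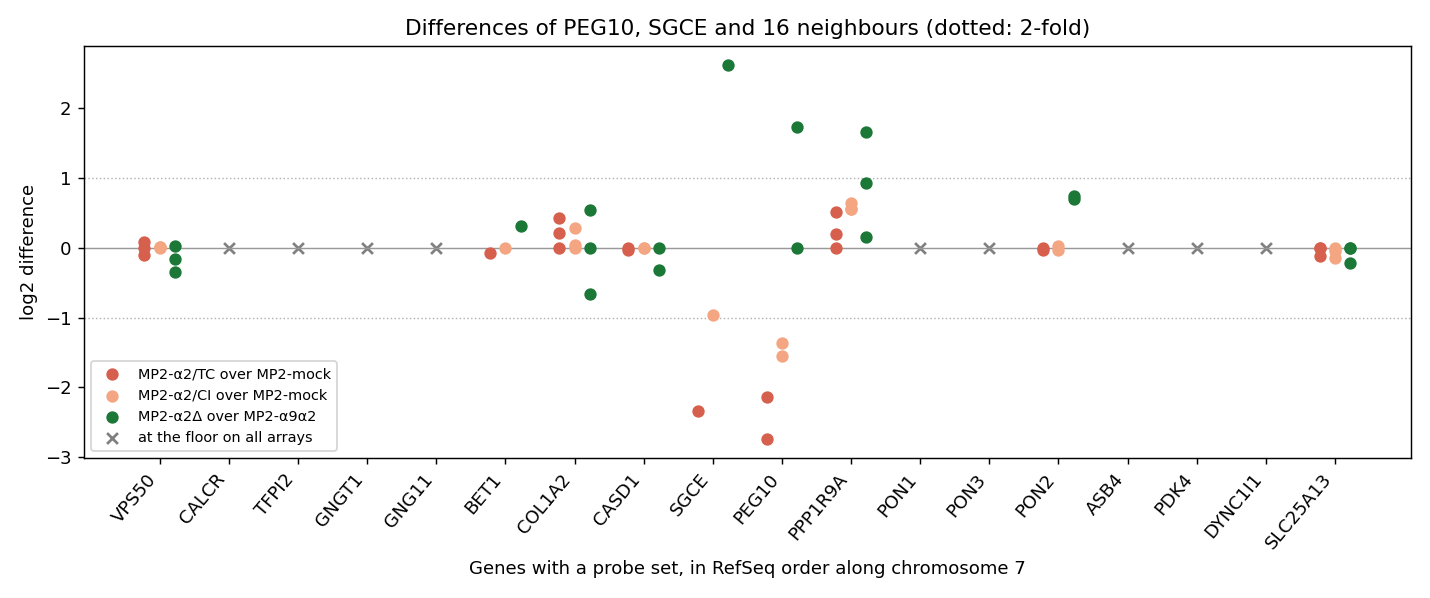
Log2 differences (vertical axis) of probe sets above the floor for SGCE, PEG10 and the 16 nearest genes with a probe set, in RefSeq order on chromosome 7 (horizontal axis), for 3 pairs of arrays, with crosses for genes at the floor on all arrays and dotted lines at 2-fold. In both comparisons with MP2-mock cells only SGCE and PEG10 left the band from −0.14 to 0.65 in which the neighbors lay.

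GRB10 was expressed in all 5 populations, with its highest values in MP2-α9α2 cells. Probe set 209409_at read 8.19 in MP2-α2/CI, 8.55 in MP2-α2/TC, 8.75 in MP2-α2Δ, 10.7 in MP2-α9α2 and 8.71 in MP2-mock cells. Probe set 209410_s_at read 6.33 in MP2-α2/CI, 6.34 in MP2-α2/TC, 7.23 in MP2-α2Δ, 8.15 in MP2-α9α2 and 6.34 in MP2-mock cells. Probe set 210999_s_at read 7.38 in MP2-α2Δ cells, 8.40 in MP2-α9α2 cells and 5.64 in MP2-α2/CI, MP2-α2/TC and MP2-mock cells. MP2-α9α2 cells were highest in all 3, and none differed by 2-fold among α2 cells on plastic or collagenI and mock cells (−0.51 to 0).

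Set against mock cells across the sets, GRB10 was higher in MP2-α9α2 cells by 4.01-fold in 209409_at and 6.74-fold in 210999_s_at (a log2 difference of 2.75), and in 209410_s_at the log2 difference was 1.81. After quantile normalization the log2 differences were 1.35 for 209409_at, 1.92 for 210999_s_at and 0.98 for 209410_s_at, so that 209410_s_at fell short of 2-fold. In MP2-α2Δ cells the direction of 209409_at depended on the scaling (0.05 as deposited and −0.80 centered). MP2-α2Δ cells were 3.33-fold higher than mock cells in 210999_s_at as deposited (1.73), but short of 2-fold when centered (0.89) or quantile normalized (0.86). The same cells were lower than MP2-α9α2 cells within their set by −0.92 in 209410_s_at, short of 2-fold. The remaining GRB10 probe set, 215248_at, read 2.22 to 2.24 and was above the floor in MP2-α2Δ and MP2-α9α2 cells alone. Around GRB10, the 16 nearest genes with a probe set had 16 probe sets above the floor in MP2-α2Δ over MP2-α9α2 cells. Of these, 1 was higher (LANCL2 218219_s_at, 1.01) and 1 lower (VOPP1, −1.19), beside 7.56% and 4.95% of all probe sets. LANCL2 222561_at differed the other way (−0.87), and LANCL2 222560_at was identical in this pair. In the pairs among the other 3 arrays 0 passed 2-fold, and few probe sets of the whole array did.

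The other members gave little signal. Of the 19 member probe sets, 13 were above the floor on at least 1 array, 8 on all 5 and 6 on none, and the 6 that passed 4 on any array were those of PEG10, SGCE and GRB10 already described. MEST, of the α/β-hydrolase fold family, read 2.64 in both MP2-α2Δ and MP2-α9α2 cells and 2.25 in the set of 3. NNAT, a small membrane proteolipid of brain and endocrine cells, read 2.44 to 2.45 throughout. Both were thus flat inside each set and near the floor.

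CDKN1C had 5 probe sets, of which 213182_x_at read 3.30 in MP2-α2Δ and MP2-α9α2 cells and 3.26 in the other 3 populations. The other 4 lay between 2.21 and 2.62. All 3 probe sets of PLAGL1, a zinc finger transcription factor, and both of PEG3, another zinc finger protein, stood at the array minimum everywhere. At these levels a change in MEST, NNAT, CDKN1C, PLAGL1 or PEG3 was not detectable.

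**Figure D4:**
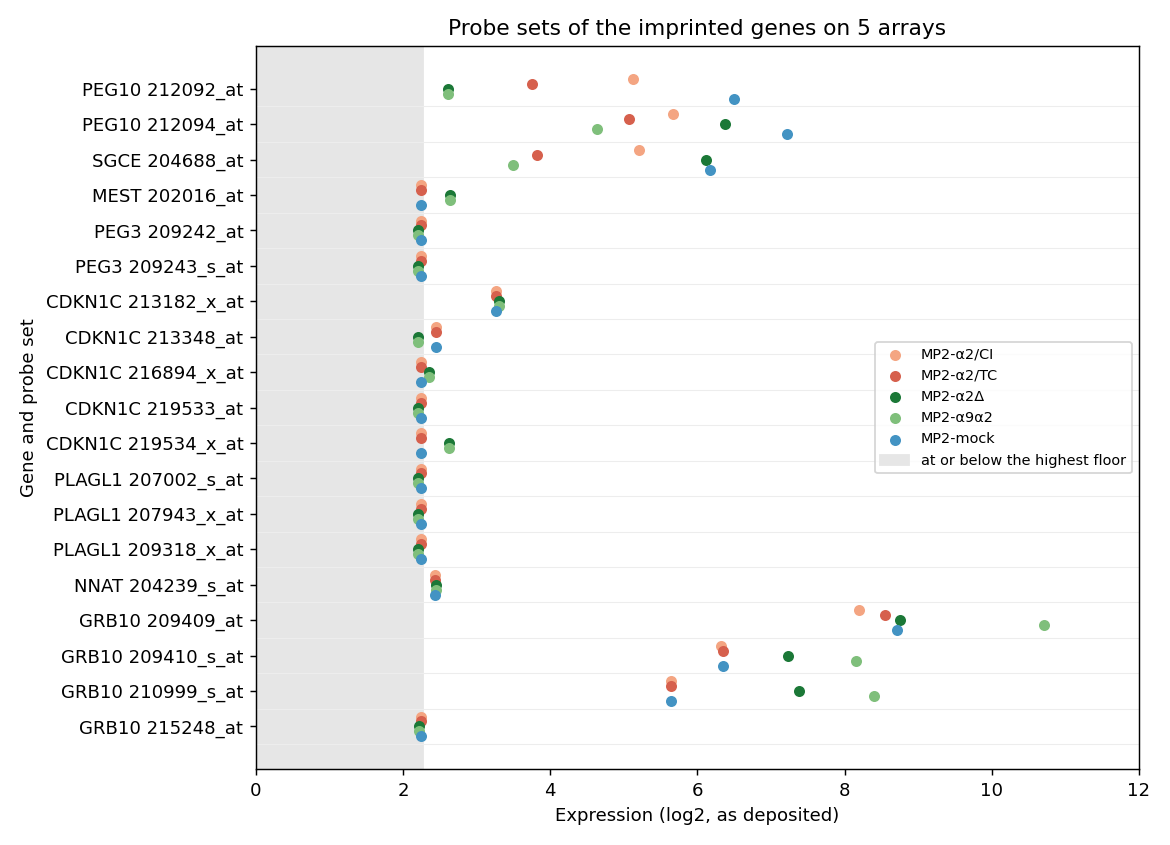
Log2 expression (horizontal axis) of the 19 member probe sets (vertical axis), 1 point for each of the 5 arrays, with the range up to the highest floor shaded. Only the PEG10 and SGCE probe sets and 3 of GRB10 passed 4, and points of the other members lay between 2.21 and 3.30.

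Of the 6 probe sets annotated to a member together with another gene, 1 had clear signal. This was 224646_x_at, given to H19, a noncoding RNA expressed from the maternal copy, and to the miRNA gene MIR675 inside it, so that it can be credited to neither alone. It read 5.24 in MP2-α2/CI, 6.60 in MP2-α2/TC, 3.77 in MP2-α2Δ, 4.24 in MP2-α9α2 and 6.41 in MP2-mock cells. α2 cells on collagenI were lower than mock cells (−1.18) and lower than α2 cells on plastic (−1.36), whereas PEG10 and SGCE were higher on collagenI than on plastic. A probe set ending in _x_at can also read related transcripts, and the other joint probe set of this locus was at the minimum on all arrays. The 3 probe sets given jointly to IGF2 and INS-IGF2 were at the minimum too, and that of PEG3 and ZIM2 read 2.21 to 2.32.

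Imprinted genes outside the 10 were looked at in the same pairs. Of 16 other paternally expressed genes, 13 had a probe set, and 0 of the 9 probe sets above the floor were 2-fold apart in any pair within a set. Only L3MBTL1, a chromatin-binding protein, passed 4, with at most 4.79. Of 15 other maternally expressed genes, 13 had a probe set, and 0 of 21 probe sets above the floor were 2-fold apart in MP2-α2/TC over MP2-mock cells, whose median was 0. In that pair 0.214% of all probe sets were higher and 0.248% lower, so 0 in lists of this size says little. In MP2-α2Δ over MP2-α9α2 cells 2 of the 21 were higher and 2 lower, beside 7.56% and 4.95% of all probe sets.

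PHLDA2, which limits placental growth in mice, differed most of these, with 9.93 in MP2-α2Δ cells and 6.81 in MP2-α9α2 cells (3.12, 209803_s_at). In the set of 3 it read 8.78 in MP2-α2/CI, 8.73 in MP2-α2/TC and 9.56 in MP2-mock cells, so both α2 populations were below mock cells (−0.78 and −0.83), short of 2-fold. PHLDA2 209803_s_at and SGCE thus differed in the same direction in these pairs, although PHLDA2 is a maternally expressed gene of chromosome 11. Another PHLDA2 probe set above the floor, 209802_at, was identical within each set. It read 3.49 in MP2-α2Δ and MP2-α9α2 cells and 2.33 in the set of 3. The second higher probe set in MP2-α2Δ over MP2-α9α2 cells was that of PPP1R9A. The lower ones were of KCNQ1, a potassium channel (−1.14), and OSBPL5, a lipid transfer protein (−1.09). KCNQ1 and OSBPL5 each had another probe set above the floor that was identical in this pair.

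Genes beside the other members had no probe set 2-fold apart in MP2-α2/TC over MP2-mock cells in any list. Only 0.214% of all probe sets were higher and 0.248% lower in that pair. The shares for MP2-α2Δ over MP2-α9α2 cells were 7.56% and 4.95%. In MP2-α2Δ over MP2-α9α2 cells, the 18 probe sets above the floor around H19, IGF2 and CDKN1C held 2 that were higher, of PHLDA2 and MRPL23, a mitochondrial ribosomal protein (1.01), and 5 that were lower. The lower ones were 3 of CARS1, a cysteinyl-tRNA synthetase, with KCNQ1 and OSBPL5. Near PLAGL1, PHACTR2 was lower in 1 of 5 probe sets (−1.93), and near NNAT, TGM2, a transglutaminase, in 1 of 3 (−1.60).

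Proteins that keep imprints or write DNA methylation did not pass 2-fold in any pair within a set. DNMT1, the maintenance methyltransferase, read 12.5 in the MP2-α2Δ population, 12.9 in MP2-α9α2 cells and 10.5 to 10.6 in the set of 3. UHRF1, its recruiter, read 13.2 in the MP2-α2Δ population, 13.6 in MP2-α9α2 cells and 12.5 to 12.7 in the set of 3. TRIM28, the corepressor of ZFP57, read at most 12.3 and differed by less than 2-fold in every pair within a set, whereas ZFP57 itself was at the minimum and ZNF445, with a like function, was between 6.14 and 7.69.

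In the pathways of the members, IGFBP4, a binding protein of IGF ligands, was the one of 17 IGF axis genes that passed 2-fold within a set. It read 4.07 in MP2-α2/CI, 5.41 in MP2-α2/TC, 8.80 in MP2-α2Δ, 4.72 in MP2-α9α2 and 4.92 in MP2-mock cells. It was thus lower on collagenI than on plastic in α2 cells (−1.34) and higher in MP2-α2Δ against MP2-α9α2 cells (4.08). Of 7 probe sets of cyclin-dependent kinase inhibitors, 3 were higher in the MP2-α2Δ population than in MP2-α9α2 cells, a pair in which 7.56% of all probe sets were higher. These were CDKN1A, or p21 (1.16), and both probe sets of CDKN3, a phosphatase that acts on cyclin-dependent kinases (1.67 and 1.43). The other 4, of CDKN1B, CDKN2A and CDKN2D, differed by 0 to 0.41.

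Within a set, partners of SGCE seldom reached 2-fold. Across the array, 0.214% of probe sets were higher and 0.248% lower in MP2-α2/TC over MP2-mock cells. For MP2-α2Δ over MP2-α9α2 cells the shares were 7.56% and 4.95%. Of 17 sarcoglycan and dystroglycan complex probe sets, 0 were 2-fold apart in MP2-α2/TC over MP2-mock cells, and in MP2-α2Δ over MP2-α9α2 cells SNTB2, a syntrophin, was higher in 1 of 5 (1.16) and SGCB, β-sarcoglycan, lower in 1 of 4 (−1.28). Other genes derived from retrotransposon gag sequences, the relatives of PEG10, had 5 probe sets above the floor and 0 past 2-fold within a set. In a list of genes co-regulated with imprinted genes in mice, only GATM, of creatine synthesis, passed 2-fold within a set. GATM had 2 of 4 probe sets higher in MP2-α2Δ against MP2-α9α2 cells (1.99 and 1.94).

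Likeness to PEG10 and SGCE was measured as the Euclidean distance over 3 log2 differences (both α2 populations against MP2-mock cells, and MP2-α2Δ against MP2-α9α2 cells) among 1988 genes past 2-fold in at least 1 of them. Outside the 10 imprinted genes, those nearest to PEG10 212094_at were S100A3 (0.76), CXCL2 (0.83), CHI3L2 (0.84), TNFRSF9 (0.89) and RNF182 (0.98). Outside the 10 imprinted genes, those nearest to SGCE were CXCL2 (0.65), TNFRSF9 (1.05), CXCL3 (1.12), CHI3L2 (1.29) and PCDH1 (1.34). PEG10 212094_at and SGCE were 1.08 apart, which would put this probe set 3rd among those nearest to SGCE and SGCE 10th among those nearest to it. The other PEG10 probe set, 212092_at, was not alike in this sense, with a distance of 2.69 from SGCE. CXCL2, a neutrophil chemokine, read 8.72 in MP2-α2/CI, 8.15 in MP2-α2/TC, 11.4 in MP2-α2Δ, 8.85 in MP2-α9α2 and 10.3 in MP2-mock cells, so it had the order of SGCE within each set.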

How the data were processed

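RNA of 5 populations was hybridized to Affymetrix whole-genome arrays, 1 array each. The values deposited by the authors were normalized, 1 for each probe set on each array, and from their range they were taken as log2, and the submitters' notes name GCRMA and MAS5. The base of the logarithm and which arrays were normalized together are not given in the sources used here.

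Of 54675 probe sets, 62 controls were left out. The platform annotation gave 1 symbol for 41091, several for 1801 and none for 11721, and 41037 symbols were updated through RefSeq (GRCh38.p14). Values below the floor were raised to it, and log2 differences were taken for probe sets above the floor on either array of 6 pairs. Identical means within 1e-06. Calls are at least 2-fold. Named are all members, listed genes past 2-fold within a set, list-defining genes and the 5 genes most alike.

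Members and lists were chosen with earlier results of these data known. The calculation, not the differences themselves, was tested on simulated data with planted changes. Alternatives were a floor at the 99th percentile, at 4 or none, centering, quantile normalization, 3-fold or 1.5-fold, and leaving out probe sets ending in _x_at or _s_at. Python 3.11.15, pandas 2.3.3, numpy 2.4.6 and matplotlib 3.10.9 were used.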

Additional observations from a re-analysis of the deposited data

Results flagged for a closer look

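ITGA2, which encodes α2, stood at the minimum on 4 arrays in both of its probe sets. In MP2-α2Δ cells alone it read 3.28 in 205032_at and 7.28 in 227314_at, at least 1.07 and 5.07 above MP2-α9α2 cells on the log2 scale. All 4 probe sets of ITGA9, for α9, were at the minimum on all 5 arrays. The paper notes that the introduced α2 construct does not contain the untranslated end of the transcript that the ITGA2 probes read, so values at the minimum say nothing about expression of the α2 transgene. The source of the signal in MP2-α2Δ cells was not tested.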

How the results depend on the processing

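Each population had 1 array, so no difference has a measure of precision, and signal over the floor shows only that a probe set was detected. Among arrays that shared a minimum, all 11 member differences past 2-fold kept their direction and their side of the limit with another floor or none, centering and quantile normalization (55 values). Leaving out probe sets ending in _x_at or _s_at took away 1 of the 4 in MP2-α2Δ over MP2-α9α2 cells. Across the sets, 8 differences were past 2-fold, and 37 alternative values kept the call while 3 fell short of 2-fold, with none of the 8 reversed. The number of members past 2-fold depended on the limit. At 3-fold it was 0 rather than 2 for MP2-α2/CI over MP2-mock cells and 0 rather than 2 for MP2-α2/CI over MP2-α2/TC cells. For MP2-α2Δ over MP2-mock cells it was 4 at 1.5-fold and 1 without the probe sets ending in _x_at or _s_at, rather than 2. These changes follow from the limit or from the fewer probe sets counted. No paired analysis was possible because each population had 1 array and the result comes from no test.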

Other observations

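ZEB1, a transcription factor of the mesenchymal state, was lower in 1 of 4 probe sets (−1.10) in MP2-α2Δ against MP2-α9α2 cells. The other markers of the epithelial and mesenchymal lists did not reach 2-fold in that pair. Their part in the PEG10, SGCE and GRB10 differences was not tested.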
